A study of Mus musculus with 24 samples.

Results

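The response of wild-type mouse liver to WY-14,643 (WY), a synthetic agonist of the nuclear receptor PPARα, was examined by setting the 3 wild-type mice given WY in the diet against the 3 wild-type mice given the control diet. All 6 mice, of the 24 in the series, were held at room temperature, and mice given heat shock (HS) were kept out of this comparison. The samples were chosen by their titles. All mice of the series were males, 9 to 12 weeks old, on a mixed SV129/C57BL/6 background, and WY was fed at 500 ppm in NIH-07 chow for 1 week. Liver RNA of each mouse was hybridized to 1 Affymetrix Murine Genome U74Av2 array, on which a probe set is a group of short probes to 1 transcript. Further groups of 3 mice served for comparison of the WY response. These were wild-type mice exposed to 42°C for 40 minutes and killed 4 h later, after the control diet (HS) or after the WY diet (WY+HS), and PPARα-null mice, in which the receptor gene is disrupted, on either diet at room temperature. PPARα-null mice given the same HS, on either diet, entered the normalization and the shared fit but no comparison. Whole liver was used, so that fewer cells of a type and less RNA per cell cannot be told apart.

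PPARα is a fatty acid-sensing receptor that binds DNA together with the retinoid X receptor, at direct repeats of the hexamer AGGTCA with 1 base between them. In the liver of mice and rats it is known for the control of fatty acid uptake, activation and oxidation in peroxisomes, mitochondria and microsomes. Agonists such as WY cause peroxisome proliferation and liver enlargement in these species.

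WY changed 1339 of 12422 probe sets in wild-type liver, or 10.8% (limma, Benjamini-Hochberg adjusted p under 0.05), with 694 higher and 645 lower than in the control mice. By the brightest probe set of each gene, 551 of 8251 genes, or 6.68%, were higher and 507, or 6.14%, were lower. The median log2 change was 0 over all genes, 0.86 over the higher and -0.87 over the lower probe sets. Changes of at least 4-fold were seen in 84 higher and 59 lower probe sets. All 3 WY mice read above or below all 3 controls in 678 of the 694 and 629 of the 645, against 2993 probe sets, or 24.1%, over the whole array. The calls were made on the same values, which raises these counts, and they are not separate support. Intensities of the 6 arrays correlated at 0.973 to 0.976 within the control mice, 0.971 to 0.982 within the WY mice and 0.935 to 0.946 between them.

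The split between rises and falls depended on how the arrays were brought to a common level. As deposited, the median intensities were 22.8 to 25.3 on the control and 26.9 to 40.5 on the WY arrays, and without scaling 90% of the calls were rises, with the median of probe sets above the floor shifted by 0.39 (log2). With a common array median in place of quantile normalization 42.8% were rises, against 51.8% as reported here. Directions are therefore relative to the bulk of the array. A normalized intensity below 15.7 was set to that floor, and where all mice of a group were at the floor the change is a lower bound. Such a group shows no spread, which can make p too small.

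*Ppara* itself did not pass the test. It read 315, 298 and 357 in the control mice and 329, 274 and 289.6 in the WY mice (log2 change -0.12, SE 0.22, adjusted p = 1), and the groups overlapped. *Alb*, the major secreted protein of hepatocytes, read 9080.4, 9080.4 and 8412 in the control mice and 9080.4, 9080.4 and 9080.4 in the WY mice (log2 change 0.04, adjusted p = 0.8). Its signal is at the top of the array, where quantile normalization gives arrays tied values, and a change cannot be read from it.

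**Figure D1:**
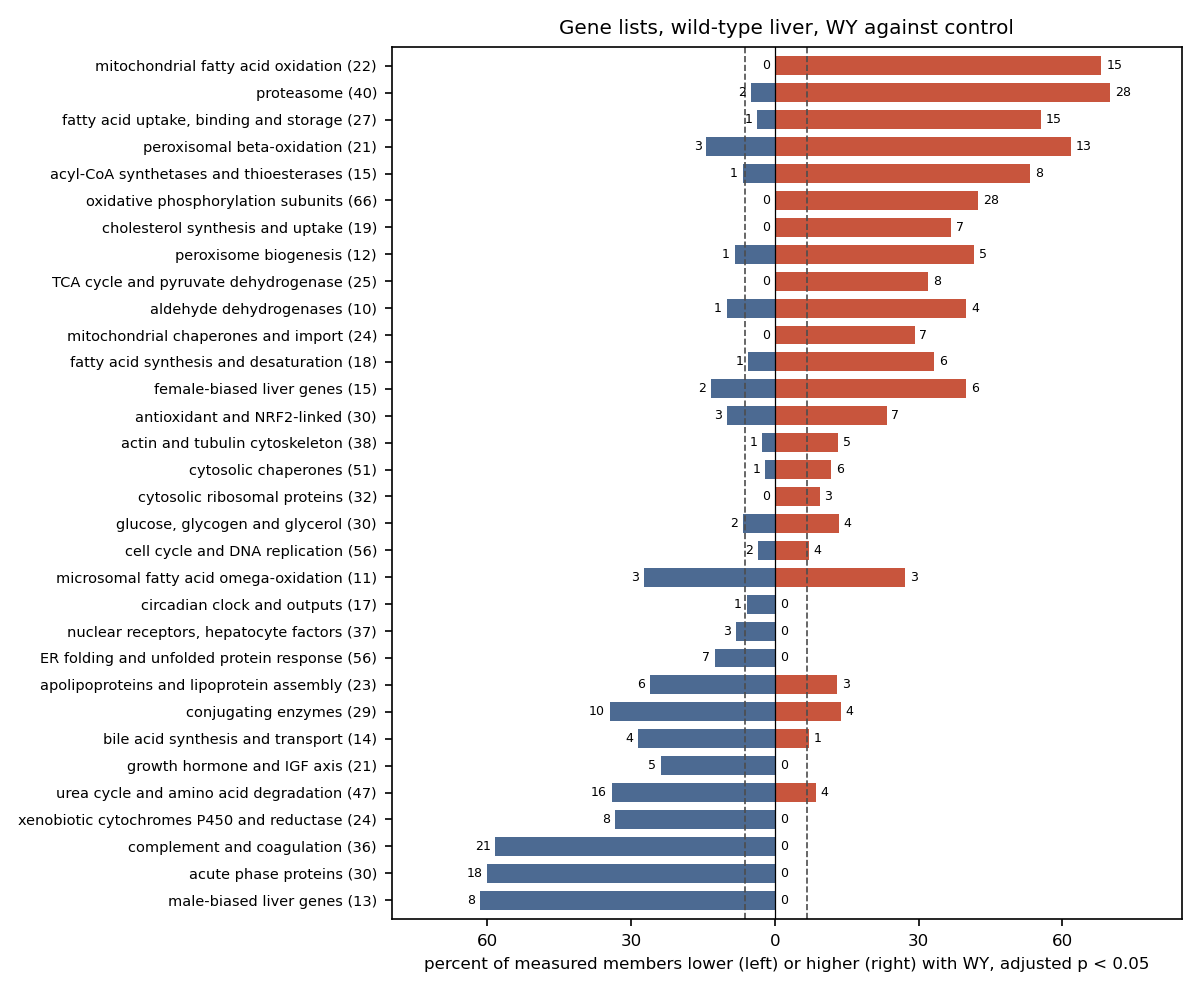
Percent of the measured members of each gene list that were lower (bars to the left) or higher (bars to the right) in the 3 WY than in the 3 control wild-type mice at an adjusted p under 0.05, with the number of genes at each bar and of measured members in brackets. Dashed lines mark the shares over all genes (6.14% lower, 6.68% higher), and the fatty acid, proteasome and oxidative phosphorylation lists extend to the right while the acute phase, complement and male-biased lists extend to the left.

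Genes of the peroxisome were the first group examined. Of 21 measured genes of peroxisomal β-oxidation, which shortens very long and branched fatty acids, 13 were higher and 3 lower with WY, and the median log2 change was 0.92. *Ehhadh*, the bifunctional enzyme of the pathway, read 74.9, 75.3 and 81.9 in the control mice and 2653, 2381 and 2410.2 in the WY mice (log2 change 5.00, SE 0.18, adjusted p = 1.23e-11). Every WY mouse was far above every control. *Crat*, a carnitine acyltransferase that exports shortened acyl groups, read 15.7, 37.9 and 15.7 in the control mice and 668, 652 and 647 in the WY mice (log2 change 4.96, SE 0.47, adjusted p = 1.49e-06), with 2 controls at the floor. *Hao2*, a 2-hydroxy acid oxidase, was at the floor in all controls and read 157, 137 and 225 in the WY mice, at least 10.7-fold higher (adjusted p = 2.2e-05).

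The further steps of the pathway moved the same way. *Ech1*, an enoyl-CoA isomerase, rose 4.69-fold and *Acaa1a*, a thiolase, 3.3-fold (limma adjusted p = 8.27e-08 and 4.98e-08). The other thiolase gene, *Acaa1b*, read 2189.6, 2281 and 2653 in the control mice and 8767, 8767 and 8767 in the WY mice (log2 change 1.89, SE 0.09, adjusted p = 4.85e-10). The 3 equal values come from the top of the array, where quantile normalization ties arrays, so that the sizes of the 2 probe sets cannot be compared. A dimmer probe set of the same gene went from 240.5, 407 and 518 to 4916, 4916 and 4814 (log2 change 3.72, SE 0.36, adjusted p = 2.07e-06). *Abcd3*, the transporter that brings acyl-CoA into the organelle, rose 3.42-fold and *Amacr*, a racemase for branched acids, 4.11-fold (adjusted p = 3.73e-10 and 0.0224). The 3 lower members, named after their values were seen, were *Uox*, urate oxidase (log2 change -0.55), *Pipox*, an oxidase of pipecolic acid (-0.98), and *Abcd4*, a transporter now known from the lysosome (-1.32).

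Of 12 genes of peroxisome biogenesis and membranes, 5 were higher and 1 lower. *Pex11a*, which drives peroxisome division, stood out with 275, 319.6 and 417 in the control mice and 1915, 1824 and 1772 in the WY mice (log2 change 2.47, SE 0.24, adjusted p = 1.96e-06). No overlap was seen between the groups. *Pex19*, an import receptor for membrane proteins, rose 2.04-fold (adjusted p = 0.00266). *Pex13*, *Mpv17* and *Pex7* rose by 0.51 to 0.77 (log2), and *Pxmp2*, a pore protein of the membrane, fell by 0.52 (log2). The rises were 2 without control mouse 2 and 3 without WY mouse 7.

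Microsomal ω-oxidation starts with cytochromes P450 of the 4A family. *Cyp4a14* read 239, 386 and 443 in the control mice and 5239, 5396 and 5099 in the WY mice (log2 change 3.93, SE 0.70, adjusted p = 0.0011). *Cyp4a10* read 348, 364 and 474 in the control mice and 4366, 3428 and 4306 in the WY mice (log2 change 3.36, SE 0.66, adjusted p = 0.00225). Both groups were far apart for each gene, although closely related family members can share these probes. *Aldh3a2*, which oxidizes the fatty aldehydes formed, read 664, 605 and 686 in the control mice and 4115, 4339 and 4237 in the WY mice (log2 change 2.70, SE 0.33, adjusted p = 2.44e-05). Of the 11 measured genes of this list 3 rose and 3 fell, the falls being in *Cyp4f13*, *Adh4* and *Aldh3a1* (log2 change -0.99, -0.74 and -0.52). The last is a bound, because *Aldh3a1* was at the floor in all WY mice. The 3 falls became 1 without control mouse 1, control mouse 2, WY mouse 7 or WY mouse 8, and 0 without WY mouse 9 or by the methods' test.

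Mitochondrial fatty acid oxidation and ketogenesis had 15 of 22 measured genes higher and 0 lower, with a median log2 change of 0.78. *Pdk4*, a kinase that blocks pyruvate oxidation, read 27.2, 15.7 and 17.1 in the control mice and 771, 239 and 612 in the WY mice (log2 change 4.64, SE 0.47, adjusted p = 3.3e-06). WY mouse 8 was lowest at 239, still above all controls. *Acadl* and *Acadm*, the long and medium chain acyl-CoA dehydrogenases, rose 4.1-fold and 2.52-fold (limma adjusted p = 6.95e-06 and 1.6e-08). *Hadhb*, the thiolase subunit of the trifunctional protein, read 753, 739 and 828 in the control mice and 2469.9, 2345 and 2345 in the WY mice (log2 change 1.63, SE 0.08, adjusted p = 8.33e-10). Among auxiliary enzymes, *Decr1*, a dienoyl-CoA reductase, rose 4.82-fold and *Eci1*, an isomerase, 3.93-fold. The carnitine transporters *Slc22a5* and *Slc25a20*, of the cell membrane and the inner mitochondrial membrane, rose 4.77-fold and 2.9-fold. *Cpt1a*, the carnitine palmitoyltransferase of the outer membrane and named after its value was seen, had a log2 change of 0.19 that did not pass (adjusted p = 0.888).

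Uptake, binding and storage of fatty acids held 15 higher genes and 1 lower of 27, and the largest called rise of a named gene. *Lpl*, lipoprotein lipase, read 38.1, 15.7 and 15.7 in the control mice and 895, 909 and 925 in the WY mice (log2 change 5.43, SE 0.54, adjusted p = 2.98e-06), with 2 controls at the floor. *Fabp4*, a fatty acid binding protein best known from adipocytes, read 28.2, 23.7 and 17.2 in the control mice and 412, 282 and 448 in the WY mice (log2 change 4.05, SE 0.31, adjusted p = 1.23e-07). *Vnn1*, a pantetheinase, read 109, 108 and 149 in the control mice and 2199.6, 2068 and 1715 in the WY mice (log2 change 4.04, SE 0.36, adjusted p = 7.42e-07). All WY mice exceeded the controls in these genes. *Fabp3*, the heart form, was at the floor in all controls and at least 15.2-fold higher with WY (adjusted p = 3.88e-06), and *Fabp2*, the intestinal form, rose 4.31-fold. The lipid droplet genes *Cidea* and *Cidec* and the lipase gene *Mgll* rose as well. *Cidec* was at the floor in all controls and read 74.6, 51.4 and 75.0 with WY, at least 4.19-fold higher (adjusted p = 9.91e-10).

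*Cd36*, a fatty acid translocase, was at the floor in all controls and read 83.4, 101 and 102 in the WY mice, at least 6.04-fold higher (adjusted p = 1.89e-09). In the RefSeq promoter table of build GRCm38.p6, 1 listed start of *Cd36* has a match to the PPARα repeat. It is shown because it is the largest rise among genes with such a match, a choice made after the values were seen. The 250 bases before that start, on the minus strand at chr5:17835897-17836146, read as follows, with the match in capitals.
Cd36: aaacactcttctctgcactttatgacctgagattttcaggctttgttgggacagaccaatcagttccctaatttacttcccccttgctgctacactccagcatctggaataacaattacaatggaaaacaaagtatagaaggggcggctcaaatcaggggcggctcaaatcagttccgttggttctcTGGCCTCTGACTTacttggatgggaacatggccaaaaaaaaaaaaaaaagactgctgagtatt
The match has 2 mismatches in the 12 letters of the hexamers and lies on the opposite strand. No promoter of the 12 listed for called peroxisomal β-oxidation genes held such a match. It was found in 4.04% of the 445 higher genes with a listed promoter, 5.72% of 402 lower genes, 3.21% of 5729 genes that did not pass, and 3.24% of all 32851 promoters in the table. An exact repeat occurred in 11 of these promoters, 1 of them of a lower gene and 0 of a higher gene. The hexamer alone was in 14.8%, 18.7% and 13.7% of the 3 sets of genes.

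Activation of fatty acids to acyl-CoA and the reverse step showed 8 genes higher and 1 lower of 15. *Acot1*, a cytosolic acyl-CoA thioesterase, read 138, 108 and 154 in the control mice and 3057, 2779 and 2989 in the WY mice (log2 change 4.48, SE 0.17, adjusted p = 1.91e-11). The groups were far apart, with no overlap. *Acot8*, its peroxisomal counterpart, rose 3.19-fold, and the synthetase genes *Acsl5* and *Acsl4* rose 3.73-fold and 2.65-fold. Among fatty acid transport proteins *Slc27a1* rose 4.44-fold and *Slc27a4* 2.03-fold. *Slc27a5*, which conjugates bile acids to CoA, was the gene that fell, from 2033, 2145 and 1957 to 1103, 1369 and 1082 (log2 change -0.79, SE 0.14, adjusted p = 0.000775).

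**Figure D2:**
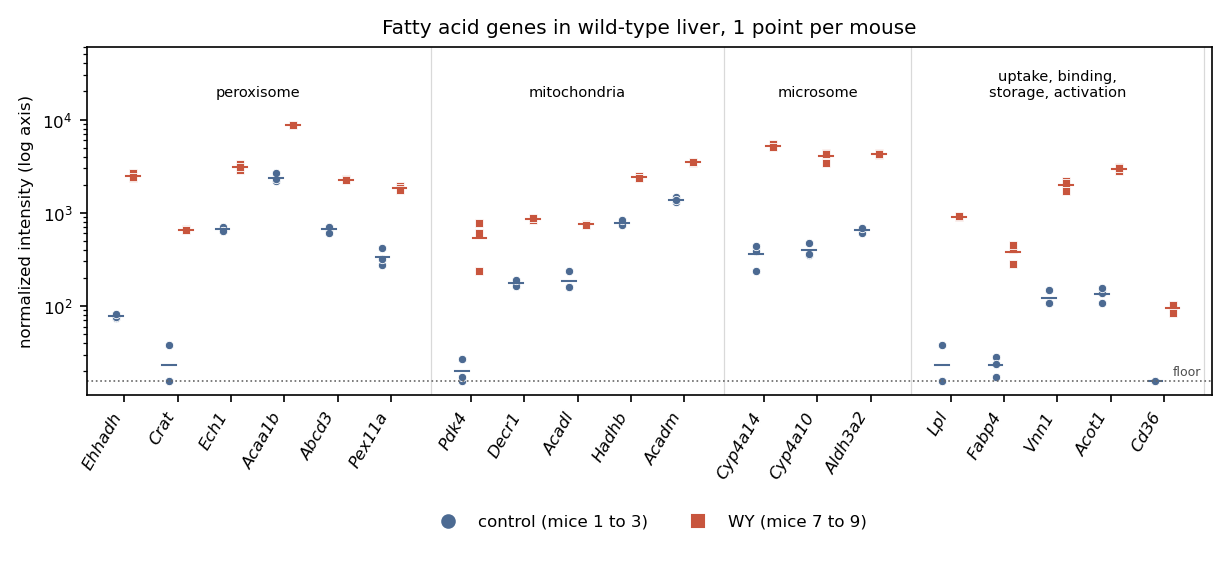
Normalized intensity (log axis) of genes of fatty acid metabolism in each control mouse (circles) and WY mouse (squares) of the wild-type strain, with short lines at the group means and a dotted line at the floor of 15.7. The 3 WY mice lie above the 3 controls in every gene shown, and levels of different genes cannot be compared on this scale.

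Lipid synthesis was also affected. The cholesterol pathway had 7 of 19 measured genes higher and 0 lower, with a median log2 change of 1.23. *Hmgcs1*, the cytosolic HMG-CoA synthase, read 75.5, 104 and 87.0 in the control mice and 617, 509 and 573 in the WY mice (log2 change 2.68, SE 0.34, adjusted p = 3.85e-05). *Idi1*, isopentenyl diphosphate isomerase, read 172, 270.4 and 111 in the control mice and 961, 992 and 874 in the WY mice (log2 change 2.45, SE 0.63, adjusted p = 0.0177). WY mice were above the controls in both, while the controls differed among themselves by more than 2-fold for *Idi1*. *Cyp51*, *Fdft1*, *Lss*, *Fdps* and *Nsdhl*, of later steps, rose 2.65-fold to 4.82-fold (adjusted p 0.00416 to 0.0297). At an adjusted p under 0.01 or with the test of the study's methods the count was 2, and it was 4, 2 and 3 without control mouse 1, control mouse 3 or WY mouse 7. The sterol element core CACCCCAC, searched on both strands, was in 1 of the 5 promoters listed for these genes and in 2.58% of all promoters. It lies in that of *Hmgcs1*, shown with its match in capitals, on the plus strand at chr13:119690101-119690350.
Hmgcs1: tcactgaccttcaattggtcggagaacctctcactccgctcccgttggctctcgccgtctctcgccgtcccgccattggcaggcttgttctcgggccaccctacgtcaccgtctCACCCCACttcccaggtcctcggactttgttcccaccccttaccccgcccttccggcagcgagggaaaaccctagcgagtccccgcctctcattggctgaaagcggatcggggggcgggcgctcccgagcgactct
The pentamer CCAAT was present in all 5 of these promoters, 15 of the 17 listed for measured members and 33.8% of all promoters.

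Of 18 genes of fatty acid synthesis and desaturation 6 rose and 1 fell. *Me1*, malic enzyme, which supplies NADPH, read 135, 176 and 159.5 in the control mice and 1864, 1420.2 and 1742 in the WY mice (log2 change 3.42, SE 0.31, adjusted p = 1.02e-06), and no value overlapped. *Pgd*, of the pentose phosphate pathway, was at the floor in all controls and at least 5.17-fold higher with WY (adjusted p = 0.000966). *Elovl5*, an elongase of polyunsaturated fatty acids, rose 3.6-fold, and *Fasn*, fatty acid synthase, 3.2-fold (adjusted p = 2.35e-06 and 0.0379). *Thrsp*, a lipogenic factor induced by thyroid hormone, was the gene that fell, from 579, 461 and 689.5 to 169.8, 115 and 249.7 (adjusted p = 0.0157), and lost its call without control mouse 3 or WY mouse 8.

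Lipoprotein genes were divided, with 3 higher and 6 lower of 23. *Apoa4*, a lipoprotein component, read 3021, 3520.5 and 3457 in the control mice and 174, 252 and 177 in the WY mice (log2 change -4.07, SE 0.23, adjusted p = 3.18e-09). *Pltp*, the phospholipid transfer protein of plasma, read 52.4, 53.3 and 59.9 in the control mice and 667, 566 and 778 in the WY mice (log2 change 3.59, SE 0.34, adjusted p = 1.44e-06). The 2 genes moved in opposite directions, with no overlap between the groups in either. *Mttp*, which loads lipid onto apolipoprotein B, rose 2.32-fold (adjusted p = 0.0339). *Apom*, a carrier of sphingosine phosphate, fell from 1195, 1165 and 1206 to 398, 491 and 432 (adjusted p = 1.45e-06), and *Apof*, *Lrp1* and *Apoh* fell by 0.79, 0.84 and 0.35 (log2). In bile acid metabolism 1 gene rose (7.14%, near the share over all genes) and 4 fell of 14. *Abcb4*, the phospholipid exporter of bile, rose 1.61-fold. *Cyp7b1*, of the alternative bile acid pathway, fell from 1889, 1864 and 1936 to 823, 952 and 642 (adjusted p = 0.00215), and *Slc10a1*, the uptake transporter for bile acids, from 2312, 2448 and 2420.3 to 1239.7, 1496 and 1100.0 (adjusted p = 0.00829). *Baat* and *Akr1c6* fell by 0.59 and 0.24 (log2), and *Akr1c6* was not called in 11 of the 19 alternatives. *Abcb4* lost its call without control mouse 1 or WY mouse 8.

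Secreted proteins of the acute phase, which the liver makes in inflammation, had 18 of 30 measured genes lower and 0 higher. The median log2 change was -0.63. *Saa2*, serum amyloid A, read 2258, 578 and 2021 in the control mice and 15.7, 15.7 and 15.7 in the WY mice (log2 change -6.46, SE 1.16, adjusted p = 0.0011). All WY mice were at the floor, and on the log scale their mean was at least 87.7-fold below that of the controls. Control mouse 2 was the lowest of the controls. *Orm2*, an orosomucoid, read 319, 132 and 345 in the control mice and 15.7, 15.7 and 15.7 in the WY mice (log2 change -3.95, SE 1.11, adjusted p = 0.0281), at least 15.5-fold lower. It was not called in 8 of the 19 alternatives. Saa and Orm genes have near-identical family members that can share probes. *Itih4*, an inter-α-trypsin inhibitor heavy chain, read 2653, 2420.3 and 2369 in the control mice and 314, 300.5 and 344 in the WY mice (log2 change -2.96, SE 0.13, adjusted p = 1.23e-10), and *Hamp*, the iron hormone hepcidin, 5099, 5396 and 5176 in the control mice and 1391, 1949 and 802 in the WY mice (log2 change -2.01, SE 0.25, adjusted p = 2.99e-05). For both the WY mice lay below every control. *Ttr*, the thyroxine carrier, and *Ahsg*, fetuin A, which are lowered in inflammation, fell as well, by 1.43 and 0.55 (log2).

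Complement and coagulation had 21 of 36 genes lower and 0 higher, with a median log2 change of -0.64. *C9*, of the membrane attack complex, read 1979, 2011 and 2281 in the control mice and 456, 279 and 281 in the WY mice (log2 change -2.66, SE 0.31, adjusted p = 1.47e-05). *Hc*, complement component 5, read 1563, 1614 and 1793 in the control mice and 566, 555 and 514 in the WY mice (log2 change -1.60, SE 0.08, adjusted p = 9.93e-10). The groups did not overlap for either gene. *C4bp*, an inhibitor of the classical pathway, fell 2.32-fold, and *C2*, a protease of that pathway, 2.42-fold (limma adjusted p = 9.23e-08 and 1.6e-08). *Masp1* and *Mbl2*, of the lectin pathway, fell by 1.01 and 0.96 (log2), and *Serpinf2*, the plasmin inhibitor, by 1.16. *F7*, coagulation factor VII, read 469, 542 and 528 in the control mice and 216, 171 and 177 in the WY mice (log2 change -1.45, SE 0.11, adjusted p = 2.03e-07). Without scaling, 6 acute phase and 5 complement and coagulation genes were lower and 1 and 0 were higher.

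Matches to the PPARα repeat also occurred before 23 of the lower genes. From these, 2 were picked after the values were seen. *Saa2*, which fell further, also has a match with 2 mismatches and is not shown. The promoters of *F7* and *Itih4* are shown for comparison with that of *Cd36*, each over 250 bases on the plus strand, at chr8:13025784-13026033 and chr14:30886226-30886475, with the match in capitals.
F7: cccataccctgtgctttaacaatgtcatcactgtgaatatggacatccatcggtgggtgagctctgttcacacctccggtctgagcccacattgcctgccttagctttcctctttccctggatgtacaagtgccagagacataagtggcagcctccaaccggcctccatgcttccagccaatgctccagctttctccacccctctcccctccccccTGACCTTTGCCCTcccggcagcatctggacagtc
Itih4: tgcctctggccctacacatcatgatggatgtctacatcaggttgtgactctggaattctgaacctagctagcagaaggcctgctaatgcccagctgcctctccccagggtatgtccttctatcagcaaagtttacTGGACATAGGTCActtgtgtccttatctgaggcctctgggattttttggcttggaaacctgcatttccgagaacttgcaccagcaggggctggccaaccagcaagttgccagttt
That of *F7* had 1 mismatch and lay on the opposite strand, and that of *Itih4* had 2.

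**Figure D3:**
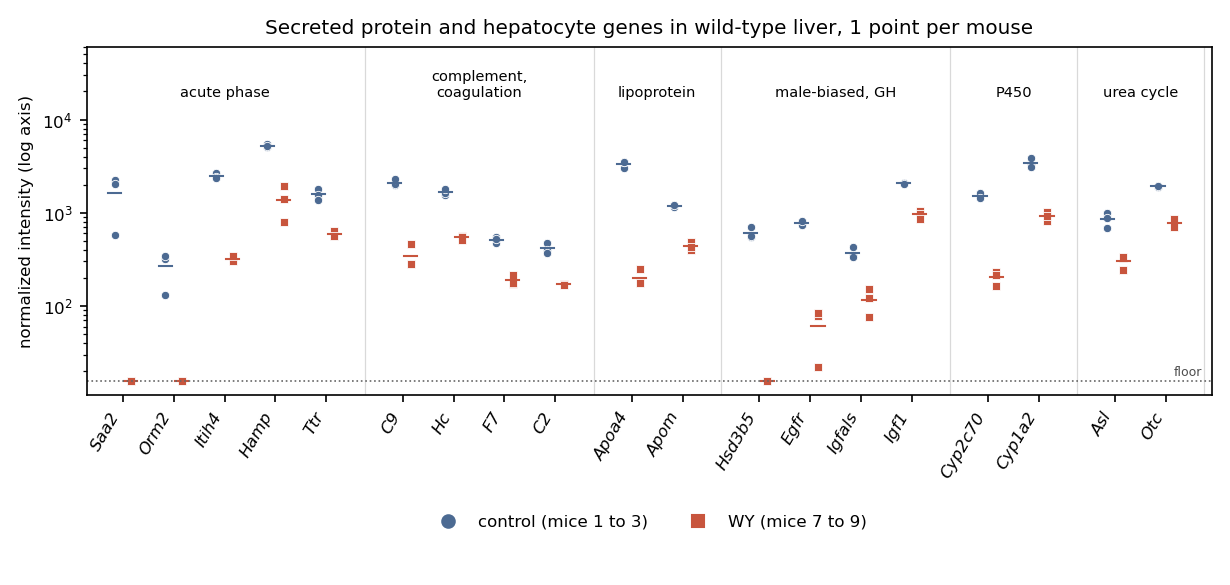
Normalized intensity (log axis) of genes of secreted proteins and hepatocyte metabolism in each control mouse (circles) and WY mouse (squares) of the wild-type strain, with short lines at the group means and a dotted line at the floor of 15.7. The 3 WY mice lie below the 3 controls in every gene shown, and *Saa2*, *Orm2* and *Hsd3b5* are at the floor in all WY mice.

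Genes with sex-biased liver expression, which depend on the pattern of growth hormone secretion, were examined in these males. Of 13 male-biased genes 8 fell and 0 rose, and the falls were 5 without WY mouse 9 or by the methods' test and 4 without scaling. *Hsd3b5*, a steroid dehydrogenase of male liver, read 545, 709 and 568 in the control mice and 15.7, 15.7 and 15.7 in the WY mice (log2 change -5.26, SE 0.94, adjusted p = 0.0011), at least 38.3-fold lower. *Egfr*, the epidermal growth factor receptor, read 797, 737 and 809 in the control mice and 77.4, 83.6 and 22.1 in the WY mice (log2 change -3.90, SE 0.47, adjusted p = 2.44e-05). Each WY mouse was below every control. The other falls were smaller, with *Cyp2d9* and *Gstp1* lower by 0.93 and 0.77 (log2) and the major urinary protein genes *Mup3* and *Mup5*, which can share probes with their family, by 0.39 and 0.38. *Mup3* was not called in 11 of the 19 alternatives. Of 15 female-biased genes 6 rose and 2 fell, but the rises were *Lpl*, *Cyp4a14*, *Hao2*, *Cyp4a10*, *Rtn4* and *Fmo1*, and 4 of these also stand in the fatty acid lists. *Cyp2b10* and *Cyp3a16*, the 2 that fell, are drug-metabolizing P450s (log2 change -1.49 and -2.16), and 1 fell without any 1 of the controls, WY mouse 7 or WY mouse 9.

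In the growth hormone and IGF axis 5 of 21 genes fell and 0 rose. *Igf1*, the main mediator of growth hormone, read 2076, 2076 and 2033 in the control mice and 1053, 965 and 862 in the WY mice (log2 change -1.11, SE 0.13, adjusted p = 2.4e-05). *Igfals*, which holds IGF-1 in the blood, read 355, 333 and 423 in the control mice and 153, 76.0 and 122 in the WY mice (log2 change -1.72, SE 0.32, adjusted p = 0.00162). *Ghr*, the growth hormone receptor, fell 2.07-fold and *Igfbp4*, an IGF binding protein, 1.91-fold (adjusted p = 0.0217 and 7.8e-07). *Socs2*, a feedback inhibitor of growth hormone signalling, read 161, 142 and 108 in the control mice and 55.3, 20.2 and 24.9 in the WY mice (adjusted p = 0.0376). For all 5 genes the WY mice were below the controls, but the count was 3 without any 1 of the controls, WY mouse 8 or WY mouse 9, and *Ghr* and *Socs2* were not called in 9 and 10 of the 19 alternatives.

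Xenobiotic metabolism was lower in part. Of 24 cytochrome P450 and reductase genes 8 fell and 0 rose. The count of falls was 4 without any 1 of the controls, 5 without WY mouse 9, 3 by the methods' test and 14 with a common array median. *Cyp2c70*, which makes muricholic acids in mice, read 1526, 1630.0 and 1425 in the control mice and 165, 232 and 215 in the WY mice (log2 change -2.92, SE 0.18, adjusted p = 7.94e-09), and *Cyp1a2*, 3307, 3882 and 3126 in the control mice and 819.6, 1023 and 923 in the WY mice (log2 change -1.90, SE 0.18, adjusted p = 1.96e-06). WY mice were below controls in both. *Cyp2c29* and *Cyp2c38* fell by 0.95 and 0.53 (log2) and *Cyb5r3*, an electron donor, by 0.47. The sign of the last turned without scaling (0.0036). Of 29 conjugating enzymes 10 fell and 4 rose. *Nnmt*, nicotinamide N-methyltransferase, read 276, 90.1 and 357 in the control mice and 15.7, 15.7 and 15.7 in the WY mice (log2 change -3.72, SE 0.71, adjusted p = 0.0019), at least 13.1-fold lower, as all WY mice were at the floor. *Sult1a1* and *Sult5a1*, sulfotransferases, fell 5.53-fold and 4.31-fold, and among glutathione S-transferases *Gsta4*, *Gstm2* and *Gsta2* fell by 1.60 to 2.01 (log2). *Gstk1*, the glutathione transferase of peroxisomes and mitochondria, rose from 1025, 952 and 902 to 2119, 2088 and 2088 (adjusted p = 5.02e-05), and *Mgst3* rose 2.45-fold. The 4 rises became 2 without control mouse 2 or WY mouse 7.

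Among 30 antioxidant and NRF2-linked genes 7 rose and 3 fell. *Gsr*, glutathione reductase, read 177, 211 and 185 in the control mice and 363, 336 and 317 in the WY mice (log2 change 0.83, SE 0.08, adjusted p = 1.37e-06). *Txn1*, *Gpx1*, *Gpx4* and *Sod2* rose by 0.49 to 0.91 (log2). The metallothionein genes fell, *Mt1* from 4115, 2970.2 and 4636 to 616, 1728 and 1465 and *Mt2* from 4143, 2751 and 3912 to 773, 1858 and 1391 (adjusted p = 0.00981 and 0.0121). In each, WY mouse 7 was the lowest and mouse 8 the highest of the WY group. *Srxn1*, sulfiredoxin, a classical NRF2 target, had opposite calls on its 2 probe sets, the brighter with a log2 change of -0.80 and the dimmer, 23.8 to 50.4 in the means, with 1.08 (adjusted p = 0.0377), so that it has no settled direction. With a common array median 2 of the list rose and 4 fell, and 4 rose without control mouse 3, WY mouse 7 or WY mouse 9. The 3 falls became 1 without control mouse 1 or WY mouse 7, and 0 with the 6 arrays alone or by the methods' test.

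Amino acid metabolism had 16 of 47 genes lower (34.0%) and 4 higher (8.5%, near the share over all genes). In the urea cycle, *Otc*, ornithine transcarbamylase, read 1957, 1883 and 1915 in the control mice and 799, 846 and 702 in the WY mice (log2 change -1.30, SE 0.09, adjusted p = 6.21e-08), and *Asl*, argininosuccinate lyase, 984, 680.0 and 881 in the control mice and 244, 329 and 339 in the WY mice (log2 change -1.48, SE 0.22, adjusted p = 0.000205). Neither gene overlapped between groups. *Sardh*, which degrades sarcosine, fell 2.61-fold, *Hal*, histidine ammonia-lyase, 2.26-fold, *Gamt*, of creatine synthesis, 2.2-fold, and *Bcat2*, a branched-chain aminotransferase, 2.46-fold (adjusted p 4.36e-07 to 0.00251). *Csad*, which makes taurine, rose from 224, 261 and 278 to 979.7, 1082 and 961 (adjusted p = 0.00119), and *Hibch*, of valine degradation, rose 2.81-fold. Of 30 genes of glucose, glycogen and glycerol metabolism 4 rose (13.3%) and 2 fell (6.67%, near the share over all genes). *Slc37a4*, the glucose-6-phosphate transporter, read 691, 747 and 783 in the control mice and 182, 235 and 261 in the WY mice (log2 change -1.73, SE 0.27, adjusted p = 0.000347). *Fbp2*, the muscle form of fructose bisphosphatase, was at the floor in all controls and at least 5.69-fold higher with WY (adjusted p = 4.62e-07). *Slc16a1*, a lactate and ketone body transporter, and *Gpd1*, glycerol phosphate dehydrogenase, rose 2.95-fold and 1.63-fold. *Ugp2*, of glycogen synthesis, fell 1.81-fold.

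The respiratory chain changed by small amounts in many genes. Of 66 oxidative phosphorylation genes 28 rose and 0 fell, with a median log2 change of 0.31. *Ndufb3*, of complex I, read 674, 710.0 and 647 in the control mice and 1148, 1202 and 1157 in the WY mice (log2 change 0.79, SE 0.08, adjusted p = 4.73e-06). *Cycs*, cytochrome c, read 175, 207 and 182 in the control mice and 419, 342 and 374 in the WY mice (log2 change 1.01, SE 0.13, adjusted p = 3.8e-05), and *Cox17*, a copper chaperone of complex IV, 453, 494 and 389.8 in the control mice and 811, 800.5 and 928 in the WY mice (log2 change 0.93, SE 0.17, adjusted p = 0.0011). All 3 were higher in each WY mouse than in any control. The largest log2 change in the list, of *Ndufa10* (2.01), came from values near the floor in the controls. The count was 9 with a common array median, 14 with the test of the study's methods, and 16 and 18 without control mouse 3 or WY mouse 9, with 0 lower in each.

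In the TCA cycle 8 of 25 genes rose and 0 fell. *Mdh2*, malate dehydrogenase, rose 2.03-fold, *Dlst*, of the oxoglutarate dehydrogenase complex, 1.91-fold, and *Suclg1*, succinate-CoA ligase, 1.69-fold (adjusted p = 8.34e-05, 2.88e-05 and 4.92e-07). The count was 4 without control mouse 1, control mouse 3 or WY mouse 7, and 5 without WY mouse 8 or 9. Of 24 mitochondrial chaperone and import genes 7 rose and 0 fell. *Hspd1*, the chaperonin Hsp60, read 1600.3, 1667 and 1526 in the control mice and 2638, 2558 and 2547 in the WY mice (log2 change 0.69, SE 0.10, adjusted p = 0.000196). Its partner *Hspe1* read 812, 851 and 760.2 in the control mice and 1606, 1288 and 1798 in the WY mice (log2 change 0.94, SE 0.18, adjusted p = 0.00181). *Phb2*, prohibitin, rose 1.74-fold. With a common array median 2 of the list were higher, and 3 without control mouse 1, WY mouse 7 or WY mouse 9.

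The proteasome, which degrades ubiquitinated proteins, had 28 of 40 measured genes higher, or 70%, and 2 lower. *Psmd4*, a ubiquitin receptor of the regulatory particle, read 299, 412 and 319.8 in the control mice and 869.5, 923 and 1044 in the WY mice (log2 change 1.47, SE 0.16, adjusted p = 8.18e-06). *Psmb5*, which carries the chymotrypsin-like site, read 209.6, 239 and 261 in the control mice and 528, 456 and 572 in the WY mice (log2 change 1.13, SE 0.13, adjusted p = 8.99e-06). All WY mice were above the controls in both. A second probe set of *Psmb5* did not pass, with means of 221 and 212 (log2 change -0.07, adjusted p = 1). *Psmd14*, the deubiquitinase of the lid, and *Psmd12* rose 2.08-fold and 3.31-fold, and the α-ring subunits *Psma7* and *Psma4* 2.03-fold and 1.94-fold. The 2 falls were in *Psmb8*, 113, 109 and 112 in the control mice and 44.9, 33.6 and 45.5 in the WY mice (log2 change -1.44, SE 0.21, adjusted p = 0.000158), and *Psmb10*, 146, 183 and 195 in the control mice and 84.3, 82.2 and 102 in the WY mice (log2 change -0.96, SE 0.19, adjusted p = 0.00222). Both encode subunits of the immunoproteasome, which replace the standard catalytic subunits after interferon. The third such gene, *Psmb9*, named after its value was seen, read 56.1, 35.8 and 30.2 in the control mice and 15.7, 15.7 and 15.7 in the WY mice and did not pass (log2 change -1.32, adjusted p = 0.141). With a common array median 16 of the list rose, and with the methods' test 18. The 2 falls passed in both, but not without scaling.

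**Figure D4:**
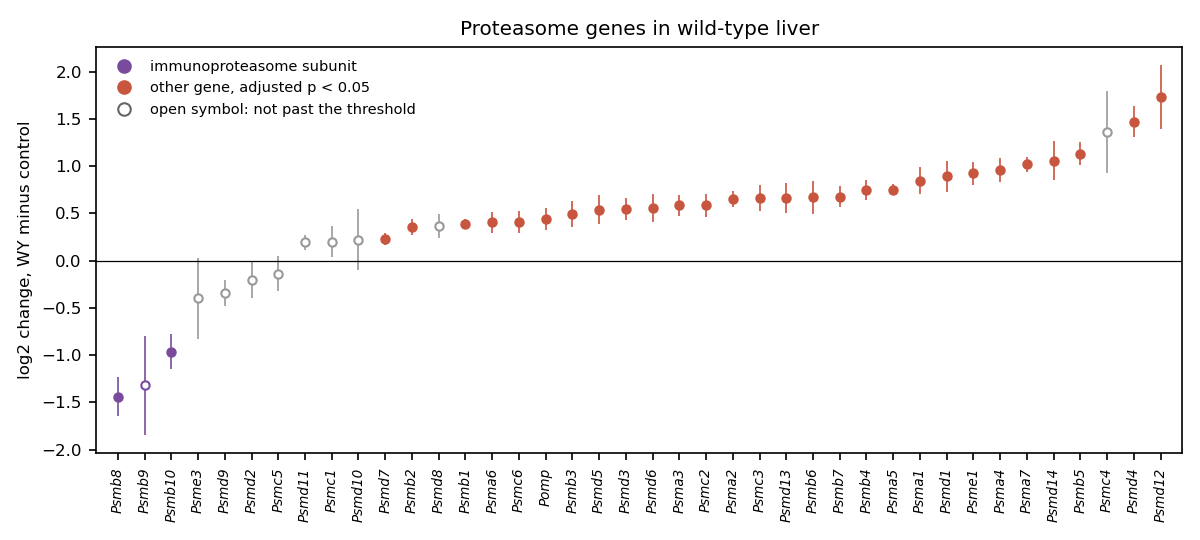
Log2 change (WY minus control, wild-type liver, n = 3 mice per group) of each of the 40 measured proteasome genes, with bars of 1 standard error, filled where the adjusted p was under 0.05. The immunoproteasome genes *Psmb8*, *Psmb9* and *Psmb10* are at the left end, from -1.44 to -0.96, and 28 of the other genes are past the threshold above 0.

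Endoplasmic reticulum folding and unfolded protein response genes had 7 of 56 lower and 0 higher. *Xbp1*, the transcription factor of that response, read 512, 498 and 521 in the control mice and 224, 175 and 179 in the WY mice (log2 change -1.42, SE 0.25, adjusted p = 0.000992). *Atf6*, a sensor of that response, fell by 0.86 (log2). *Tram1* and *Sec61a1*, of the translocation channel, fell 1.85-fold and 1.56-fold, and *Ppib*, a prolyl isomerase, 1.53-fold. *Dad1*, of the glycosylation complex, fell by 0.42 (log2) but had a change of 0.073 without scaling. None of the 7 passed without scaling. *Ero1b*, an oxidase of the compartment, read 269, 237 and 203 in the control mice and 139, 116 and 148 in the WY mice (log2 change -0.81, SE 0.20, adjusted p = 0.0123). Its promoter, on the plus strand at chr13:12565633-12565882, is the only 1 of the 4 listed for called genes of this list with the stress element, CCAAT and CCACG with 9 bases between, here on the opposite strand and in capitals.
Ero1b: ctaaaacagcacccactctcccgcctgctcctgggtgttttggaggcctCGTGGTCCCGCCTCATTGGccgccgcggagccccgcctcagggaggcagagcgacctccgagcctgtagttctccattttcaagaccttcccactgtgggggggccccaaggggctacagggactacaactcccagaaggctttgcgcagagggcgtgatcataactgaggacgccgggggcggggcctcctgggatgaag
The element was in 8 of 53 promoters listed for measured members, or 15.1%, and in 0.113% of all promoters. The other members with the element did not pass.

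Cytosolic chaperones had 6 of 51 genes higher and 1 lower. *Cct3*, *Cct5* and *Cct6a*, of the chaperonin that folds actin and tubulin, rose by 1.19, 0.45 and 0.60 (log2). *Hspa8*, the constitutive Hsp70, read 524, 458 and 536 in the control mice and 818, 715 and 902 in the WY mice (log2 change 0.68, SE 0.20, adjusted p = 0.0327), and *Chordc1* and *Cacybp*, partners of Hsp90, rose by 0.77 and 0.64 (log2). *Cct6a* and *Cacybp* were not called in 12 of the 19 alternatives each. *Cdc37*, which brings kinases to Hsp90, fell by 0.53. With a common array median 2 rose and 2 fell, and 2 rose without control mouse 1, control mouse 3, WY mouse 7 or WY mouse 9. In the cytoskeleton list 5 of 38 rose and 1 fell. They were the tubulin genes *Tubb2a*, *Tubb3*, *Tubb4b* and *Tubb6*, which can share probes (log2 change 1.25 to 2.19), and *Krt8*, a keratin of hepatocytes (0.91). The rises were 1 without control mouse 3 and 2 or 3 without any other of the 6 mice. The fall was in *Cfl1*, cofilin (-0.35), which changed by 0.14 without scaling and lost its call without control mouse 1, control mouse 2, WY mouse 8 or WY mouse 9.

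Of 56 cell cycle genes 4 rose (7.14%) and 2 fell (3.57%), shares near or below those over all genes, and without WY mouse 8 the rises were 1. *Cdkn1a*, the cyclin-dependent kinase inhibitor p21, read 15.7, 19.6 and 15.7 in the control mice and 85.6, 116 and 82.0 in the WY mice (log2 change 2.46, SE 0.61, adjusted p = 0.0131), *Btg2* and *Gadd45b*, stress-induced growth inhibitors, rose 4.15-fold and at least 3.85-fold, and *Ccnb2*, a mitotic cyclin, 1.75-fold. *Ccne1*, a cyclin of the start of DNA replication, was low in WY mice 7 and 9 and near the controls in mouse 8 (34.7, 208 and 47.4, against 244, 235 and 212 in the controls). Of 37 nuclear receptors and hepatocyte transcription factors 3 fell (8.1%, near the 6.14% over all genes) and 0 rose. The falls were in *Cebpa*, *Nr5a2* and *Nr2f6*, by 0.50 to 0.62 (log2). Of 17 clock genes 1 fell (5.88%, near the share over all genes). It was *Tef*, an output factor (log2 change -1.76, adjusted p = 0.0103), which was not called without WY mouse 7. Of 32 ribosomal protein genes 3 rose (9.4%, against 6.68% over all genes), by 0.28 to 0.39 (log2), and 1 without control mouse 1, WY mouse 7 or WY mouse 9. In the aldehyde dehydrogenases, 4 of 10 rose and 1 fell. Beside *Aldh3a2*, *Aldh9a1* rose 1.98-fold, and *Aldh1a1* and *Aldh1a7*, which can share probes, 1.46-fold and 1.84-fold.

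Among the largest changes were genes outside these lists. *Lamb3*, a laminin chain, and *Prss8*, a membrane protease, were at the floor in all controls and rose at least 19.7-fold and 13.0-fold. *Lamb3* read 327, 261 and 352 in the WY mice (adjusted p = 9.48e-17), but controls that are all at the floor show no spread, which can make p too small, and in a fit of the 6 arrays alone it was 0.000713. The same limit holds for other genes with all controls at the floor. Their largest limma adjusted p over the alternatives was 0.0010 for *Cd36*, 0.0036 for *Hao2*, 0.0044 for *Fabp3*, 0.0076 for *Cidec*, 0.034 for *Pgd* and 0.038 for *Fbp2*. For *Gadd45b* it was 0.146, and 1 of the 19 alternatives did not call that gene. *Cox6b2*, a complex IV subunit best known from testis, read 17.4, 19.0 and 33.1 in the control mice and 389.8, 304 and 364 in the WY mice (log2 change 3.98, SE 0.18, adjusted p = 1.4e-10) on a dim probe set, and its brighter probe set rose from a mean of 263 to 1156 (log2 change 2.14, adjusted p = 0.0394). *Gm34703*, a predicted gene, read 31.9, 15.7 and 15.7 in the control mice and 185, 334 and 238 in the WY mice (log2 change 3.62, SE 0.66, adjusted p = 0.00124). In both the WY mice were above every control. *Ifitm3*, an interferon-induced protein of cell membranes, read 1321, 1212 and 1367 in the control mice and 58.3, 62.3 and 15.7 in the WY mice (log2 change -5.07, SE 0.47, adjusted p = 1.26e-06). *Tspan4*, a tetraspanin, read 441, 332 and 458 in the control mice and 53.3, 15.7 and 15.7 in the WY mice (log2 change -4.10, SE 0.63, adjusted p = 0.000276), and *Sdc4*, a heparan sulfate proteoglycan, 166, 205 and 161 in the control mice and 15.7, 15.9 and 15.7 in the WY mice (log2 change -3.48, SE 0.67, adjusted p = 0.00198). These 3 genes fell to or near the floor in at least 1 WY mouse. *Hsd11b1*, which regenerates active glucocorticoid, read 1877, 1843 and 1843 in the control mice and 224, 286 and 185 in the WY mice (log2 change -3.02, SE 0.21, adjusted p = 3.72e-08), and *Lifr*, the receptor of leukemia inhibitory factor, 644, 755 and 849 in the control mice and 82.9, 104 and 108 in the WY mice (log2 change -2.93, SE 0.49, adjusted p = 0.000657). Both were lower in each WY mouse than in any control. The genes of largest change, here and in the lists, were named by a rule that required such separation. Their lack of overlap is therefore not separate support. A single gene can have several probe sets, and of 62 genes with 2 or more called probe sets 58 had all in 1 direction. Of 211 calls for genes named here, 98 were made under each of the 19 alternatives and 148 in all 6 fits without 1 mouse. *Acaa1b*, *Cox6b2*, *Crat*, *Egfr* and *Saa2* were counted with 2 probe sets each. Beside the genes marked in the text, *Aldh3a1* was not called in 12 of the alternatives. *Sod2*, *Cyp2c38* and *Asgr2* were not called in 11 each, and *Abcd4*, *Cct5*, *Mgst3*, *Pex7* and *Tubb6* in 10 each. Calls were lost in 9 for *Amacr*, *Btg2*, *Cd79a*, *Cyp2b10*, *Cyp4f13*, *Fasn*, *Gpx4* and the brighter probe set of *Cox6b2*. They were lost in 8 for *Cdc37*, *Cyb5r3*, *Cyp2c29*, *Cyp2d9*, *Dcn*, *Eng*, *Fdps*, *Gsta2*, *Hspa8*, *Mttp*, *Srxn1* and *Tubb3*.

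Markers of the cell types of liver were read beside these results. Of 11 hepatocyte markers 5 were lower and 0 higher, with summed intensities of 38724 to 39231 in the controls and 33117 to 34655 in the WY mice. The falls were in *Ttr*, *Ahsg*, *Asgr1*, *Asgr2* and *Cps1*, while *Hnf4a* had a log2 change of 0.02 and did not pass. Sinusoidal endothelial markers summed to 1098 to 1260.4 and 704 to 804, with 3 of 12 lower (*Kdr*, *Fcgr2b* and *Eng*) and 1 higher (*Emcn*, near the floor). No marker of 13 passed for Kupffer cells (sums 948 to 1157 and 632 to 907), of 11 for neutrophils (363 to 440 and 360 to 435), of 7 for cholangiocytes (219 to 229 and 250 to 278, with *Epcam*, *Krt19* and *Krt7* at the floor) or of 12 for striated muscle (301 to 1378 and 337 to 388). Summed stellate cell markers were 2192 to 2589 and 1792 to 2092. Those of B cells were 945 to 1275 and 1001 to 1168, of erythrocytes 2288 to 3054 and 1964 to 2753, of adipocytes 2772 to 3221 and 2954 to 3132, and of pancreas 487 to 562 and 210 to 462. T and NK cell markers summed to 231 to 301 and 221 to 357. *Gzma* and *Klrd1*, both near the floor, were higher there but not called in 12 and 13 of the 19 alternatives, and 8 of the 13 markers, the T cell receptor genes *Cd3d*, *Cd3e* and *Cd3g* included, were at the floor in all 6 mice. *Cd79a*, *Dcn*, *Car2* and *Cela1* were the only members called among B cell, stellate cell, erythrocyte and pancreas markers, with log2 changes of -1.74, -0.57, 2.18 and -2.29. Of 8 adipocyte markers *Fabp4* and *Cidec* rose, while *Adipoq* read 15.7 to 23.7 and *Retn* was at the floor in all 6. The part of other cell types in the results was not tested.

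The same diet was compared in wild-type mice after HS, with 6 other arrays. WY+HS against HS gave 1203 calls, or 9.68%. Of the 694 probe sets higher with WY at room temperature, 655, or 94.4%, had a positive log2 change there and 398 passed in the same direction, and of the 645 lower 603, or 93.5%, were negative and 375 passed. The WY response differed with HS in 13 probe sets, or 0.105% (a larger value after HS in 7 and a smaller one in 6). Of these, 6 had changed with WY at room temperature, 5 upward and 1 downward. The count of 13 became 20 without control mouse 3, 25 without WY mouse 8, and 26, 22 and 29 without WY+HS mice 10, 11 and 12. In the pair at room temperature and the pair after HS, *Ehhadh* rose by 5.00 and 4.70, *Acot1* by 4.48 and 4.79 and *Lpl* by 5.43 and 4.95 (log2). The cholesterol list had 1 gene higher after HS, against 7, and a median log2 change of 0.03, against 1.23. *Hmgcs1* changed by 1.22 and *Idi1* by 0.77 after HS. The differences from the room temperature values (-1.47 and -1.68, SE 0.48 and 0.90) did not pass (adjusted p = 0.462 and 0.857), nor did that of any other member.

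In PPARα-null mice WY changed 1 probe set by limma, of *Reck*, named after its value was seen, while 429 had an unadjusted p under 0.05. The response differed between the genotypes in 637 probe sets, or 5.13%, and in 350 of the 694 higher and 258 of the 645 lower in wild-type mice. The wild-type arrays that gave those calls also enter this test. The counts among them are therefore raised by that choice and are not separate support. Of the 694, 277 (39.9%) had a positive log2 change in null mice, and of the 645, 331 (51.3%) a negative one. Probe sets at the floor in all null mice on both diets have a change of 0 and count in neither direction. The remainder are thus not all reversals. The median log2 change in null mice was -0.011 over the 694 and -0.0067 over the 645. *Ehhadh* changed by 0.43 in null mice (interaction 4.57, adjusted p = 1.24e-08) and *Acot1* by -0.10 (interaction 4.58, adjusted p = 5.55e-09). *Cyp4a14* and *Cyp4a10* had log2 changes of 1.89 and 1.85 in null mice, which did not pass (adjusted p = 1 and 1), and their differences between genotypes did not pass either (adjusted p = 0.367 and 0.572). *Cyp4a14* read 52.1, 33.1 and 41.4 in the null control mice and 329, 241 and 45.8 in the null WY mice. The null mice on WY overlapped their controls for this gene. In the proteasome 18 of the 30 called genes passed the test of the difference between genotypes, in complement and coagulation 16 of 21, in mitochondrial fatty acid oxidation 11 of 15, and in cholesterol synthesis 1 of 7. Called genes were again chosen on the same wild-type arrays, which raises such counts.

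**Figure D5:**
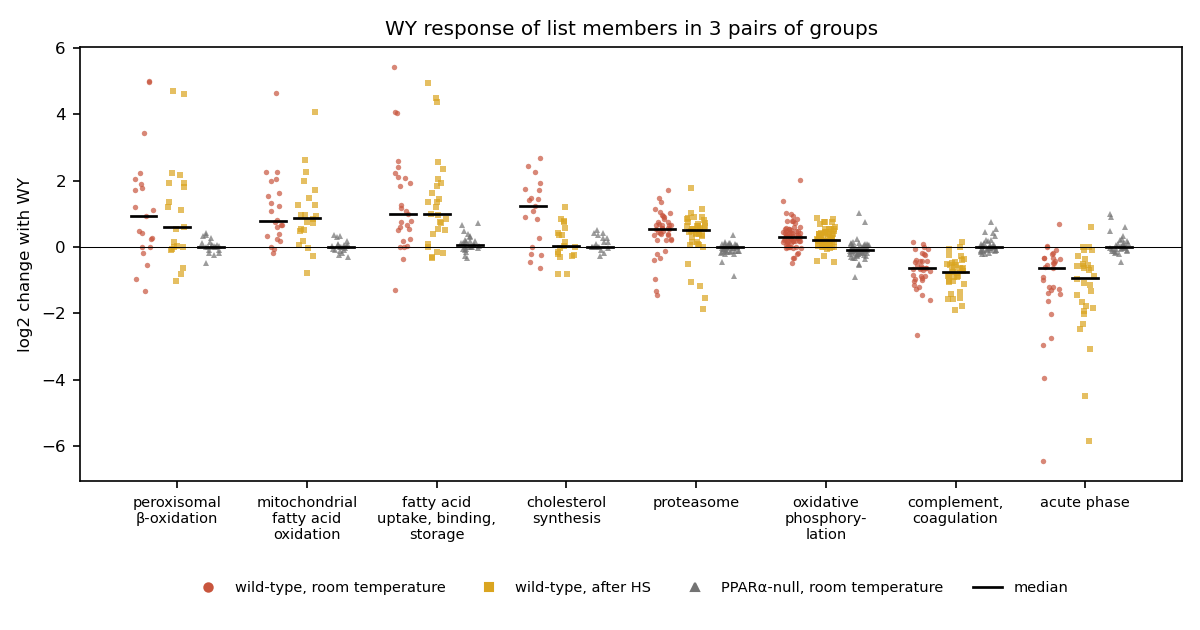
Log2 change with WY of the measured members of 8 gene lists in wild-type mice at room temperature (circles), wild-type mice after HS (squares) and PPARα-null mice at room temperature (triangles), 1 point per gene with a line at the median and 3 mice per group. Medians in null mice lie between -0.09 and 0.07, and the cholesterol list has medians of 1.23 at room temperature and 0.03 after HS.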

How the data were processed

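Liver RNA of 24 mice was hybridized to 1 array each. The deposited values were intensities on a linear scale, 1 per probe set, already background-subtracted by the authors, and 24.1% of them were 0 or below. The summary of probes and any scaling of arrays before deposit are not stated. The number of arrays limits the precision, and p-values set a difference between groups against the spread between mice.

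The 12422 probe sets other than Affymetrix controls were quantile normalized, values below 15.7 (the size of the 10th percentile) were set to it, and log2 values were taken. limma (version 3.58.1, R 4.3.3) was fitted to all 8 groups, with 16 residual degrees of freedom, and p-values were adjusted by Benjamini-Hochberg over all probe sets. SE is that of the log2 change. Folds are log2 changes put back on the linear scale, so they compare group means of log2 values and not single mice. A gene was read by its brightest probe set with 1 symbol, except where the text names another probe set. The scripts were tested on simulated data. No column of samples was left unused.

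The members, the 32 gene lists and the 12 marker lists were chosen with earlier results of these data known. Genes were named from a fixed set of 8, the 15 largest separated rises and falls, up to 8 called members of each gene list, and up to 4 of each marker list. Separated means that all WY mice read above, or all below, every control. The others are named apart from this rule. These others are marked in the text, apart from *Cps1*, *Epcam*, *Krt19*, *Krt7*, *Hnf4a*, *Adipoq*, *Retn* and the *Cd3* genes among the markers, which were also named after their values were seen. One gene of the fixed set had no probe set with 1 symbol.

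Promoters are the 250 bases before RefSeq starts (GRCm38.p6), searched on both strands, the repeat with up to 2 mismatches. The alternatives were other scalings, floors, filters, thresholds and tests, array weights, the arrays compared alone, and each mouse left out. The methods' test was an analysis of variance with Scheffe's test.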

Additional observations from a re-analysis of the deposited data

Results flagged for a closer look

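The response to WY differed between wild-type and PPARα-null mice in 637 probe sets by the interaction term of limma. Among the genes named by rule, the 6 with the largest such differences in log2 change (wild-type minus null) were *Saa2* (-7.44), *Hsd3b5* (-5.70), *Ifitm3* (-5.18), *Crat* (4.96), *Lpl* (4.95) and *Acot1* (4.58). The first 3 fell and the last 3 rose with WY in wild-type mice. Their change in wild-type mice, by which they were named, is itself part of the difference.

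The response differed between mice after HS and at room temperature in 13 probe sets, and none of the genes named by rule was among them. The 6 of these that had also changed with WY at room temperature were named after their values were seen. Their differences in log2 change (after HS minus room temperature) were -2.39 for *Rfxank*, -1.82 for *Tnfrsf1a*, 1.32 for *Sat1*, -1.03 for *Zfp574*, -0.66 for *Mtpn* and -0.56 for *Zcchc7*. The probe sets of *Rfxank*, *Tnfrsf1a*, *Zfp574* and *Zcchc7* were at the floor in 2 or 3 of the room temperature controls. Those of *Tnfrsf1a*, *Zfp574* and *Zcchc7* are not the brightest probe sets of their genes. The log2 change with WY was 0 after HS for *Rfxank* and *Zfp574*. In null mice it was 0 for *Rfxank*, *Tnfrsf1a*, *Zfp574* and *Zcchc7*. A change of 0 is what probe sets at the floor in all mice of both groups have. Groups at the floor show no spread, which can make p too small for these differences.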

How the results depend on the processing

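No paired analysis was possible because no mouse number occurs in more than 1 group and every array came from a different mouse. WY changed 775 probe sets at an adjusted p under 0.01 and 713 by the methods' test, against 1339, and 991 to 1065 when single mice were left out. The share that rose was 42.8% with a common array median, 90% without scaling and 50.6% to 56.2% without single mice. In HS mice the count of 1203 became 1982 without scaling, 413 with only the arrays compared, 732 at 0.01 and 690 by the methods' test, and 965 to 1095 without single mice. The count for the difference with HS, 13, became 2639 without scaling and 3 with only the arrays compared. It was 32 with array weights, 7 with dim probe sets left out, and 13 to 29 without single mice. With the floor at the size of the 5th percentile, 33.9 and so higher than 15.7, it was 21. For the difference by genotype, 637 became 265 without scaling, 1056 with array weights and 356 at 0.01, and 500 to 644 without single mice. Without scaling the log2 change of *Cfl1* was 0.14, of *Dad1* 0.073 and of *Cyb5r3* 0.0036. The cause was not tested. Of the 1339 calls, 788 (58.8%) were shared with a fit of the 6 arrays alone. Signals at the floor, 42.9% of values, carry no order, and groups of 3 mice limit small changes.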
